A study of Mus musculus with 12 samples.

Results

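The transcripts of 7 genes, Rhoj, Cd36, Nalf1, Prkg1, Epha6, Plcl1 and Cylc1, were followed in mouse embryonic stem cells that lacked a subunit of the HUSH complex. The 7 were taken by symbol from 57180 listed genes, chosen by their measured fold changes over WT in these libraries, which were large in the MP8, Tas and Pph lines or in at least 2 of them. Their differences from WT are therefore given below as descriptions, without a test. The groups were MP8 (Mphosph8-null, lacking the protein MPP8), Tas (Tasor-null), Pph (Pphln1-null, lacking periphilin) and WT, with 3 libraries each. All were C57BL/6 embryonic stem cells sequenced from total RNA, and the labels record no treatment. Nothing in them tells separate clones or cultures from repeats of 1 culture, so each null genotype may be a single clone, and p-values cover no more than the spread among these libraries.

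HUSH is a chromatin complex built of TASOR, MPP8 and periphilin. It brings repressive histone methylation to retroelements, to foreign DNA and to some cellular genes. In embryonic stem cells it helps to keep young LINE elements quiet. None of the 7 genes belongs to the pluripotency programme. By role, Cd36, Epha6 and Nalf1 encode proteins of the cell surface. Rhoj, Prkg1 and Plcl1 encode signalling proteins inside the cell, and Cylc1 encodes a structural protein of the sperm head.

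Promoter windows in the RefSeq tables were matched for 6 of the 7 genes. No window was matched for Nalf1, which the GENCODE M21 annotation used below names Fam155a, so Nalf1 is named only. Each window ran from 250 bases before to 50 bases after the start, on build GRCm38.p6, and Prkg1 had 2 windows. The following 4 are shown because they span the range of CpG content among genes that move together, from Plcl1 at the top to Cylc1 at the bottom, with Rhoj and Cd36, which reached log2 fold changes over WT of 5.17 and 5.21 in MP8, between them. Capitals mark CpG dinucleotides, and each sequence reads 5′ to 3′ on the strand of its gene. Plcl1 lies at chr1:55405696-55405995 on the plus strand, Rhoj at chr12:75308063-75308362 on the plus strand, Cd36 at chr5:17835847-17836146 on the minus strand and Cylc1 at chrX:111110168-111110467 on the plus strand.
Plcl1: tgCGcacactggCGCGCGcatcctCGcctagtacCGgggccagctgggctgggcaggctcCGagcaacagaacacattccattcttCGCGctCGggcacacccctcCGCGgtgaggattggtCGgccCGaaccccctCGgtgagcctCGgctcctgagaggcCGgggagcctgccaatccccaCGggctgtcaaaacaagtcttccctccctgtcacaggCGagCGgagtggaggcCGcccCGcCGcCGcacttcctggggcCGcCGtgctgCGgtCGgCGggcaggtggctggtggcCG
Rhoj: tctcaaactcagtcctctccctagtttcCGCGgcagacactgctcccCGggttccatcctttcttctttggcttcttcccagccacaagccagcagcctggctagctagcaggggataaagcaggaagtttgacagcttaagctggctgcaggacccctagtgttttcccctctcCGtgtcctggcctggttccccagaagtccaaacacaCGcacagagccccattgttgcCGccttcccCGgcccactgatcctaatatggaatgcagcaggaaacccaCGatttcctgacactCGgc
Cd36: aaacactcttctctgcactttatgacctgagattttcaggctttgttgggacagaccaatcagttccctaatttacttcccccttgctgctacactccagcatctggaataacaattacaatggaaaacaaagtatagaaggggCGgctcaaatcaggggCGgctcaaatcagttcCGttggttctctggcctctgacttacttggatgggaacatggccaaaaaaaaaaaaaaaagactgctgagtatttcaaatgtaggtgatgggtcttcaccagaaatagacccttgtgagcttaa
Cylc1: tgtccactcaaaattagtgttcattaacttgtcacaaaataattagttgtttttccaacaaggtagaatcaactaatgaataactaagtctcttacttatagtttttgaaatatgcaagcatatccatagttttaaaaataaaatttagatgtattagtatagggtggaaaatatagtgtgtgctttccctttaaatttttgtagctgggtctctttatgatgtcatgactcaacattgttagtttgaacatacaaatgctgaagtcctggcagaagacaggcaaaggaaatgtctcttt

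The windows had little in common. The Plcl1 window held 30 CpGs, at percentile 89.4 of the 32851 mouse promoter windows in the same table, whose median was 7. Rhoj had 9 CpGs, Cd36 had 3 and Cylc1 had 0. The windows not shown held 15 CpGs in Epha6 and 10 and 20 in Prkg1. GC content went from 31% in Cylc1 to 70.7% in Plcl1, around a median of 52.7% over all windows. The letters TATAAA, searched on both strands, occurred in 0 of the 7 windows and in 13.6% of all windows. CCAAT, on both strands, occurred in the Cd36, Epha6 and Plcl1 windows and in 1 of the Prkg1 windows, against 37.4% of all windows.

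Library totals ranged from 17918770 to 21962079 estimated counts, and 16840 genes, with all 7 among them, passed the filter on low counts. The targeted transcripts were checked first. Mphosph8 stood at 0.306 ± 0.35 CPM (SD, n = 3, as for every mean below) in MP8 and 113 ± 3.23 CPM in WT. Tasor stood at 31.9 ± 1.19 CPM in Tas and 126 ± 2.7 CPM in WT, and Pphln1 at 21.3 ± 1.66 CPM in Pph and 68.5 ± 2.91 CPM in WT. CPM are counts scaled to a common library total. The summed level of 12 embryonic stem cell markers, with Tdgf1 the highest, was 4236 to 4273 CPM in MP8, 4810 to 4819 in Tas, 3762 to 3876 in Pph and 4898 to 5121 in WT. By edgeR at an adjusted p below 0.05, 9 of the 12 were lower than WT and 2 higher in MP8. In Tas 5 were lower and 3 higher, and in Pph 12 were lower and 0 higher. Of all tested genes, 32.2%, 25.5% and 25.7% were called lower in MP8, Tas and Pph, and 30.0%, 26.2% and 30.6% higher. The study is bulk sequencing, in which more cells with a transcript and more RNA per cell cannot be told apart.

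All 7 transcripts were higher in each null line than in WT, and the libraries of a null line did not overlap those of WT for any of them. Across the genome, 31.9% of tested genes lay above WT without overlap in MP8, 29.2% in Tas and 33.2% in Pph. Genes called higher by edgeR at an adjusted p below 0.05 made up 30.0% in MP8, 26.2% in Tas and 30.6% in Pph. In either direction, 62.2% of genes were called in MP8, 51.8% in Tas and 56.3% in Pph, and 32.2%, 25.5% and 25.7% were called lower. Nothing is read from the count of 7, since it follows from how the genes were chosen. The median log2 fold change of the 7 over WT was 4.83 in MP8, 4.16 in Tas and 3.38 in Pph, beside −0.02, −0.01 and 0.04 over all tested genes. The mean level followed the order MP8, Tas, Pph, WT from high to low in each of the 7, both in CPM and in the deposited TPM. The TPM of Epha6 were level between Tas and Pph, at 5.93 ± 4.11 and 5.89 ± 3.78. For Epha6, Plcl1 and Cylc1 the order of Tas and Pph is not resolved, as given below.

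**Figure D1:**
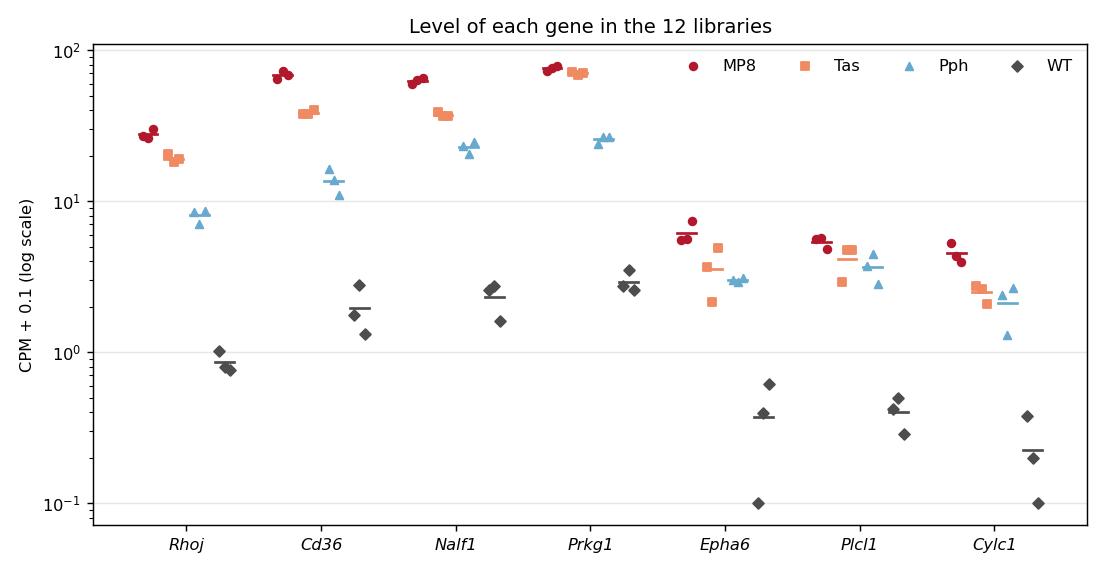
Level of each of the 7 genes in the 12 libraries, as CPM plus 0.1 on a log axis; points are libraries and bars are the means of 3 libraries in MP8, Tas, Pph and WT. For every gene the 9 null libraries lie above the 3 WT libraries, and MP8 has the highest mean; Rhoj, Cd36, Nalf1 and Prkg1 reach 26.1 CPM or more in each MP8 library, while Epha6, Plcl1 and Cylc1 stay at or below 7.31 CPM.

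Among the surface proteins, Cd36 (ENSMUSG00000002944) encodes a scavenger receptor that takes up long-chain fatty acids and oxidised lipoproteins, and is best known from adipocytes, muscle, macrophages and capillary endothelium. It had 64.5, 72.3 and 68.1 CPM in the MP8 libraries, 37.7, 37.4 and 40.1 in Tas, 16.1, 13.6 and 10.8 in Pph, and 1.65, 2.68 and 1.22 in WT. The 4 groups formed separate steps with no library of one inside another. The means were 68.3 ± 3.93 CPM in MP8, 38.4 ± 1.48 in Tas, 13.5 ± 2.64 in Pph and 1.85 ± 0.747 in WT. The log2 fold change over WT was 5.21 (SE 0.17) in MP8, 4.38 (SE 0.18) in Tas and 2.87 (SE 0.21) in Pph. In MP8 this difference was not apart from those of Rhoj and Cylc1, given below, beyond their standard errors, and in Pph it was the lowest of the 7 in the fit of all libraries.

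Nalf1 (ENSMUSG00000079157) encodes an auxiliary subunit of the sodium leak channel NALCN, which sets the resting membrane potential of neurons. It had 59.6, 63.4 and 65.2 CPM in the MP8 libraries, 38.7, 36.4 and 36.5 in Tas, 23, 20.4 and 24.5 in Pph, and 2.48, 2.63 and 1.51 in WT. Here too the 4 groups were apart, with narrow spread in each. The means of 62.7 ± 2.85 CPM in MP8, 37.2 ± 1.33 in Tas and 22.7 ± 2.08 in Pph stood against 2.2 ± 0.61 CPM in WT. Against WT, the fitted log2 fold change was 4.83 (SE 0.10) in MP8, 4.08 (SE 0.11) in Tas and 3.36 (SE 0.12) in Pph.

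Epha6 (ENSMUSG00000055540) encodes an ephrin receptor tyrosine kinase of the developing nervous system, where Eph receptors guide axons by repulsion. It was among the low transcripts, with 5.38, 5.5 and 7.31 CPM in the MP8 libraries, 3.57, 2.06 and 4.76 in Tas, 2.88, 2.8 and 2.99 in Pph, and 0, 0.297 and 0.517 in WT. Tas spanned the whole range of Pph, and WT rested on 0, 6 and 11 counts, where a count of 0 allows up to 3. The means were 6.06 ± 1.08 CPM in MP8, 3.46 ± 1.35 in Tas, 2.89 ± 0.0969 in Pph and 0.272 ± 0.26 in WT. The log2 fold change over WT was 4.46 (SE 0.48) in MP8, 3.65 (SE 0.52) in Tas and 3.40 (SE 0.54) in Pph. These values rest on single WT libraries: they became 3.87, 3.06 and 2.80 without WT replicate 1, and 5.34, 4.54 and 4.28 without WT replicate 3. The deposited TPM of Epha6 also spread more than its counts did, at 4.58, 2.67 and 10.55 in Tas and 3.77, 3.64 and 10.25 in Pph.

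The signalling proteins inside the cell followed the same order. Rhoj (ENSMUSG00000046768) encodes a small GTPase close to CDC42 that is known from endothelial cells, where it acts on adhesion and the cytoskeleton. It had 27, 26.1 and 29.8 CPM in the MP8 libraries, 20.3, 18 and 18.8 in Tas, 8.37, 7 and 8.52 in Pph, and 0.919, 0.694 and 0.659 in WT. The groups did not overlap, and the step below Tas was wider than the one above it. The means were 27.6 ± 1.91 CPM in MP8, 19.1 ± 1.18 in Tas, 7.97 ± 0.838 in Pph and 0.757 ± 0.141 in WT. Over WT, the log2 fold change was 5.17 (SE 0.14) in MP8, 4.64 (SE 0.14) in Tas and 3.38 (SE 0.17) in Pph.

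Prkg1 (ENSMUSG00000052920) encodes the cyclic GMP dependent protein kinase that relaxes smooth muscle and also acts in sensory neurons. It had 72.6, 75.9 and 78.5 CPM in the MP8 libraries, 72, 67.9 and 70.5 in Tas, 23.6, 26.6 and 26.3 in Pph, and 2.62, 3.37 and 2.49 in WT. MP8 and Tas almost touched, and both lay far above Pph, so that among the null lines Prkg1 had a wide step only below Tas, where Cd36 and Nalf1 also had one between MP8 and Tas. The means were 75.7 ± 2.99 CPM in MP8, 70.1 ± 2.1 in Tas, 25.5 ± 1.61 in Pph and 2.83 ± 0.475 in WT. Relative to WT, the log2 fold change was 4.74 (SE 0.08) in MP8, 4.63 (SE 0.08) in Tas and 3.18 (SE 0.09) in Pph.

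Plcl1 (ENSMUSG00000038349) encodes PRIP, a phospholipase C-like protein without catalytic activity that binds inositol phosphates and takes part in the traffic of GABA receptors. It had 5.49, 5.55 and 4.74 CPM in the MP8 libraries, 2.81, 4.61 and 4.66 in Tas, 3.59, 4.35 and 2.74 in Pph, and 0.322, 0.397 and 0.188 in WT. Tas and Pph overlapped, and MP8 lay just above both. The means were 5.26 ± 0.452 CPM in MP8, 4.03 ± 1.05 in Tas, 3.56 ± 0.806 in Pph and 0.302 ± 0.106 in WT. The log2 fold change over WT was 4.10 (SE 0.28) in MP8, 3.72 (SE 0.29) in Tas and 3.54 (SE 0.30) in Pph, the flattest profile of the 7 across the null lines.

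Cylc1 (ENSMUSG00000073001) encodes cylicin, a basic protein of the perinuclear theca, the cytoskeletal capsule of the sperm nucleus. It had 5.18, 4.23 and 3.85 CPM in the MP8 libraries, 2.65, 2.5 and 1.99 in Tas, 2.28, 1.2 and 2.54 in Pph, and 0.276, 0.0991 and 0 in WT. MP8 stood alone above the other lines, Tas and Pph overlapped, and the WT libraries held 6, 2 and 0 counts. The means were 4.42 ± 0.686 CPM in MP8, 2.38 ± 0.346 in Tas, 2.01 ± 0.71 in Pph and 0.125 ± 0.14 in WT. The log2 fold change over WT was 5.06 (SE 0.41) in MP8, 4.16 (SE 0.45) in Tas and 3.92 (SE 0.47) in Pph, and it became 6.34, 5.45 and 5.20 without WT replicate 1.

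Levels of different genes were compared per length, in the deposited TPM. In MP8, Prkg1 was the most abundant at 103 ± 5.69 TPM, followed by Nalf1 at 79.1 ± 2.45, Cd36 at 64.9 ± 4.54 and Rhoj at 40.8 ± 3.88. Cylc1 at 10.5 ± 1.59, Epha6 at 8.02 ± 1.48 and Plcl1 at 3.88 ± 0.23 TPM came after them, with Cylc1 and Epha6 apart by less than the sum of their SDs. In WT the same genes stood at 3.18 ± 1.23 TPM for Prkg1, 2.24 ± 0.846 for Nalf1, 1.81 ± 1.01 for Cd36 and 0.927 ± 0.371 for Rhoj, against 0.323 ± 0.303 for Epha6, 0.253 ± 0.29 for Cylc1 and 0.157 ± 0.102 for Plcl1. In WT, Prkg1, Nalf1 and Cd36 differed from each other by no more than the sum of their SDs, and so did Rhoj and Epha6, so the WT order is not resolved there. Prkg1, Nalf1, Cd36 and Rhoj had the highest means in Tas and Pph as well as in MP8. In Pph their TPM were 33.9 ± 8.5 for Prkg1, 28.6 ± 1.28 for Nalf1, 14 ± 3.35 for Cd36 and 11.1 ± 1.19 for Rhoj, and neither Prkg1 and Nalf1 nor Cd36 and Rhoj were apart by more than the sum of their SDs.

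The null lines were then compared with each other, which the choice of the genes did not use directly. A choice for large rises in at least 2 lines can still fix part of such a difference. Over the 21 tests, p-values are from edgeR's quasi-likelihood test with Benjamini-Hochberg adjustment over all 16840 genes. In MP8 over Pph, all 7 genes rose, where 27.4% of tested genes were called higher in MP8. In MP8 over Tas, 5 of the 7 rose, against a background of 27.7%, and in Tas over Pph 4 of the 7 rose, against 28.5%. Not 1 of the 7 fell, where 31.4%, 28.4% and 29.3% of tested genes did in MP8 over Pph, MP8 over Tas and Tas over Pph. Calls in either direction made up 58.8%, 56.1% and 57.8% of tested genes. The median log2 fold change of the 7 was 1.47 in MP8 over Pph, 0.75 in MP8 over Tas and 0.72 in Tas over Pph, beside −0.02, 0.00 and 0.00 over all tested genes.

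Cd36 had the widest range across the null lines. It was 5.07-fold higher in MP8 than in Pph (log2 fold change 2.34, SE 0.12, edgeR adjusted p = 4.88e-09), 2.85-fold higher in Tas than in Pph (1.51, SE 0.13, adjusted p = 5.54e-07) and 1.78-fold higher in MP8 than in Tas (0.83, SE 0.11, adjusted p = 2.59e-05). Rhoj was 3.47-fold higher in MP8 than in Pph (1.80, SE 0.09, edgeR adjusted p = 7.67e-17), 2.39-fold higher in Tas than in Pph (1.26, SE 0.09, adjusted p = 8.62e-13) and 1.45-fold higher in MP8 than in Tas (0.54, SE 0.08, adjusted p = 9.82e-07). For Nalf1 the steps were of equal height: 1.69-fold for MP8 over Tas (0.75, SE 0.07, edgeR adjusted p = 1.44e-10) and 1.64-fold for Tas over Pph (0.72, SE 0.07, adjusted p = 3.07e-09), with 2.77-fold for MP8 over Pph (1.47, SE 0.07, adjusted p = 2.87e-16). These 3 genes placed the null lines in the same order with each neighbouring pair apart beyond its error.

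Prkg1 separated Pph from the other lines and did not pass the threshold between MP8 and Tas. It was 2.96-fold higher in MP8 than in Pph (1.57, SE 0.06, edgeR adjusted p = 2.07e-20) and 2.75-fold higher in Tas than in Pph (1.46, SE 0.06, adjusted p = 1.79e-19). MP8 over Tas gave a log2 fold change of 0.11, with a 95% interval from 0.01 to 0.21 and an adjusted p of 0.0611. That difference passed the threshold under 7 of the alternatives, with adjusted p between 0.0147 and 0.0488. Among them were the fit of MP8 and Tas alone and the fits without MP8 replicate 1, WT replicate 2 or WT replicate 3. In each of them it was at most 0.14 on the log2 scale.

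The low transcripts separated MP8 from Pph but not Tas from Pph. Cylc1 was 2.21-fold higher in MP8 than in Pph (1.14, SE 0.26, edgeR adjusted p = 0.000611) and 1.86-fold higher in MP8 than in Tas (0.90, SE 0.25, adjusted p = 0.00425). Epha6 was 2.1-fold higher in MP8 than in Pph (1.07, SE 0.33, edgeR adjusted p = 0.0143) and 1.75-fold higher in MP8 than in Tas (0.81, SE 0.32, adjusted p = 0.0477). The second of these calls was lost in 9 of the 12 fits that left out a library, with adjusted p from 0.067 to 0.152; it held without Tas replicate 3, WT replicate 1 or WT replicate 3. The first was lost without MP8 replicate 3, at 0.0532, and without Pph replicate 2, at 0.0533. Plcl1 was 1.47-fold higher in MP8 than in Pph (0.56, SE 0.19, edgeR adjusted p = 0.0118), a call lost without Pph replicate 3 (0.40, adjusted p = 0.0972). Plcl1 in MP8 over Tas had a log2 fold change of 0.38, with a 95% interval from 0.01 to 0.74 and an adjusted p of 0.0846; in a fit of those groups alone the adjusted p was 0.0449.

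In Tas over Pph these 3 genes missed the threshold with intervals on both sides of 0. Epha6 had a log2 fold change of 0.26 (95% interval −0.42 to 0.94, edgeR adjusted p = 0.553). Plcl1 had 0.18 (−0.19 to 0.56, adjusted p = 0.432), and Cylc1 had 0.25 (−0.30 to 0.79, adjusted p = 0.468). Differences of up to about the size seen for Nalf1 lie within the intervals of Epha6 and Cylc1, so the depth does not show that Tas and Pph were alike for them. Summed over the 3 libraries, these genes had 206, 242 and 141 counts in Tas and 168, 207 and 116 counts in Pph.

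**Figure D2:**
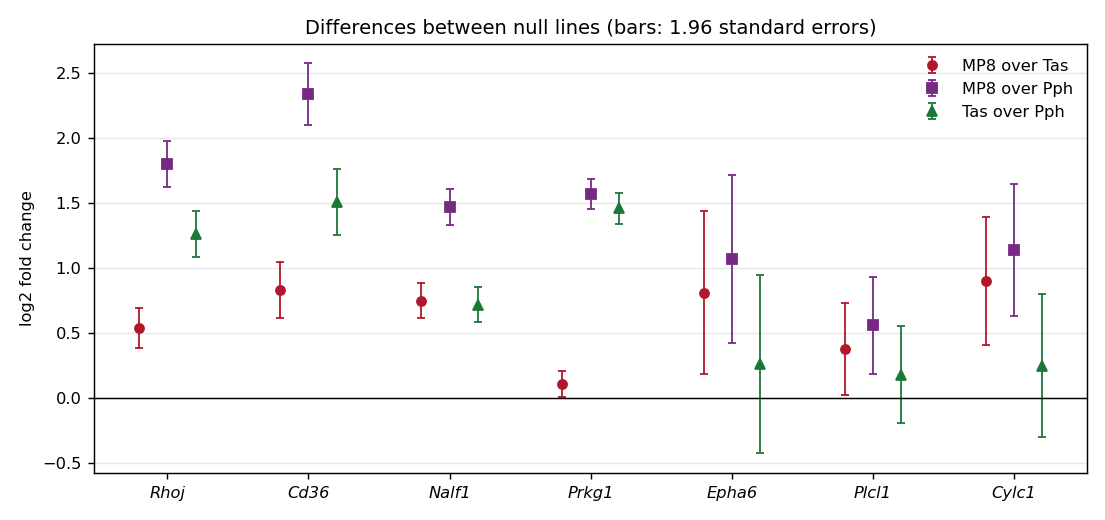
Log2 fold changes between null lines for the 7 genes, from the fit over 12 libraries; points are MP8 over Tas, MP8 over Pph and Tas over Pph, and bars are 1.96 standard errors on either side. Cd36 reaches 2.34 in MP8 over Pph, Prkg1 lies at 0.11 in MP8 over Tas beside 1.57 and 1.46 in the other comparisons, and the bars of Epha6, Plcl1 and Cylc1 cross 0 in Tas over Pph.

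The order MP8, Tas, Pph was not particular to the 7. Called by the same fit, and with the shared WT libraries in each comparison, 1787 genes (10.6% of those tested) were higher in each null line, and 332 of them by at least 4-fold in each. The mean of MP8 lay above Tas and that of Tas above Pph in 283 of these 332 genes (85.2%), and MP8 was the highest line in 301 (90.7%). Between null lines, 293 of the 332 were called higher in MP8 over Pph, 250 in MP8 over Tas and 253 in Tas over Pph. So calls between null lines, too, were frequent among genes with large shared rises and not particular to the 7. The 332 included 156 with a name other than a predicted model, among them the 7. Ranked among named genes by the smallest of the 3 fold changes, Cylc1 was the third at 3.92, Plcl1 the eighth at 3.54 and Epha6 the ninth at 3.40. Rhoj and Nalf1 came next at 3.38 and 3.36, Prkg1 had rank 16 at 3.18, and Cd36 had rank 38 at 2.87, all on the log2 scale. These ranks use the fold changes by which the genes were chosen, and they are not resolved. In Pph, where each of these values lay, the SE was 0.47 for Cylc1, 0.30 for Plcl1 and 0.54 for Epha6. Without WT replicate 1 the values in Pph were 5.20 for Cylc1 and 2.80 for Epha6. Directly above Plcl1 stood Xlr4b at 3.68, directly below Nalf1 stood Grm8 at 3.32, and Gc and Sox6, at 2.87 and 2.84, lay on either side of Cd36. Of 4758 tested genes at or below 2.83 CPM in WT, 598 (12.6%) were called higher in each null line. The filter on low counts shaped this set. Genes as low in WT as Epha6, Plcl1 and Cylc1 passed it only through their levels in null libraries. This share is therefore not that of all genes low in WT, and the part of a low WT level in the rises was not tested.

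Some partners of the 7 in their pathways rose in each null line. The list counts below stand beside those of all tested genes, of which 30.0% rose and 32.2% fell in MP8, 26.2% rose and 25.5% fell in Tas, and 30.6% rose and 25.7% fell in Pph. Among the partners was Nalcn, the pore of the channel that Nalf1 belongs to. It averaged 70.1 ± 6.42 CPM in MP8, 42.7 ± 2.11 in Tas and 28.3 ± 2.16 in Pph, against 4.53 ± 0.222 CPM in WT. Nalcn rose in each line, with log2 fold changes of 3.95 (SE 0.09, edgeR adjusted p = 3.48e-25) in MP8, 3.23 (SE 0.09, adjusted p = 2.7e-22) in Tas and 2.64 (SE 0.10, adjusted p = 1.79e-19) in Pph. The large scaffold subunits differed between the lines. Unc79 rose in MP8 by 1.70 (SE 0.25, adjusted p = 6.31e-07) and had −0.37 in Tas and −0.27 in Pph, neither of which passed. Unc80 rose in MP8 by 1.04 (SE 0.19, edgeR adjusted p = 3e-05). It fell in Tas (−0.55, adjusted p = 0.0404) and rose in Pph (0.59, adjusted p = 0.0127). Both of the latter calls were lost under the DESeq2 Wald test and in some fits that left out a library. The fall was lost without Tas replicate 1 or 2 or any 1 of the WT replicates, and the rise without Pph replicate 1. Of the 4 tested genes in the NALCN list, 3 rose in MP8, 1 rose and 2 fell in Tas, and 2 rose in Pph, or 1 without Pph replicate 1. Their median was 1.37 in MP8, −0.43 in Tas and 0.20 in Pph.

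Among 23 tested genes of cyclic GMP signalling, the pathway of Prkg1, 10 rose and 6 fell in MP8, 6 rose and 5 fell in Tas, and 12 rose and 0 fell in Pph. The shares in Tas were near those of all tested genes. The medians were 0.36, −0.01 and 0.39. The largest rises were those of the calmodulin-dependent phosphodiesterases that break down cyclic nucleotides. Pde1a averaged 65.9 ± 3.79 CPM in MP8, 38.3 ± 0.572 in Tas and 19 ± 1.02 in Pph, against 2 ± 0.948 CPM in WT. Its log2 fold change was 5.05 (SE 0.13, edgeR adjusted p = 1.87e-15) in MP8, 4.27 (SE 0.14, adjusted p = 7.44e-14) in Tas and 3.26 (SE 0.16, adjusted p = 1.6e-11) in Pph. Pde1c rose by 3.97 in MP8 (SE 0.09, edgeR adjusted p = 5.9e-24), 3.38 in Tas (SE 0.09, adjusted p = 1.11e-21) and 1.91 in Pph (SE 0.11, adjusted p = 1.77e-14). Irag1, a substrate of the kinase at the endoplasmic reticulum, rose in Tas by 2.63 (SE 0.41, edgeR adjusted p = 3.45e-06) at a level of only 1.41 ± 0.292 CPM. It had 0.99 in MP8 and −0.22 in Pph, which did not pass.

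Of 21 Eph receptors and ephrins, 11 rose and 5 fell in MP8, 9 rose and 6 fell in Tas, and 8 rose and 1 fell in Pph, with medians of 0.30, 0.13 and 0.24. Epha5, a receptor of the same class as Epha6, averaged 89.3 ± 5.23 CPM in MP8, 52.9 ± 2.89 in Tas and 28.5 ± 1.45 in Pph, against 6.48 ± 0.441 CPM in WT. Its log2 fold change was 3.78 (SE 0.07, edgeR adjusted p = 3.96e-28) in MP8, 3.03 (SE 0.07, adjusted p = 7.6e-25) in Tas and 2.14 (SE 0.08, adjusted p = 6.42e-20) in Pph. Epha3 rose in MP8 by 3.21 (SE 0.49, edgeR adjusted p = 1.84e-06), where it reached 1.68 ± 0.65 CPM, against 0.179 ± 0.19 CPM in WT. It had −0.76 in Tas and 1.02 in Pph, which did not pass. Without WT replicate 2 the values were 4.46 in MP8, 0.50 in Tas and 2.27 in Pph, of which the value in Pph then passed with an edgeR adjusted p of 0.0156. Efna5, a membrane-anchored ligand of EphA receptors, rose by 1.30 in MP8 (SE 0.11, edgeR adjusted p = 1.93e-11), 0.74 in Tas (SE 0.12, adjusted p = 3.64e-06) and 2.20 in Pph (SE 0.10, adjusted p = 1.68e-17), and so had its highest level in Pph, at 23.5 ± 2.29 CPM.

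In the sperm head list of Cylc1, 4 of 15 genes passed the filter, and in each null line the gene that rose was Zpbp. This acrosomal protein, known for a part in binding the egg coat, averaged 18.3 ± 2.09 CPM in MP8, 10.5 ± 0.907 in Tas and 7.76 ± 1.23 in Pph, against 1.05 ± 0.464 CPM in WT. Its log2 fold change was 4.13 (SE 0.18, edgeR adjusted p = 3.87e-15) in MP8, 3.32 (SE 0.20, adjusted p = 1.38e-12) in Tas and 2.89 (SE 0.21, adjusted p = 4.29e-11) in Pph. Wbp2nl, a protein of the theca, fell in each line, by 1.35 in MP8 (SE 0.23, edgeR adjusted p = 7.92e-06), 0.66 in Tas (SE 0.21, adjusted p = 0.0108) and 0.87 in Pph (SE 0.22, adjusted p = 0.00111). Actl7b, an actin-related protein of the testis, fell in MP8 by 2.08 (SE 0.49, edgeR adjusted p = 0.00051), at a level of 0.138 ± 0.0334 CPM. Cylc2, the partner of Cylc1 in the theca, had a count of 0 in each of the 12 libraries. The list's median was −0.46 in MP8, 0.34 in Tas and 0.36 in Pph.

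Lists around Rhoj, Cd36 and Plcl1 held more falls than rises in MP8, as did all tested genes, and in Tas. Of 20 tested genes among the CDC42-like GTPases and their partners, 7 rose and 9 fell in MP8, 4 rose and 9 fell in Tas, and 9 rose and 2 fell in Pph, with medians of 0.07, −0.13 and 0.13. The CDC42 effector Cdc42ep1 fell by 1.47 in MP8 (SE 0.30, edgeR adjusted p = 9.17e-05) and by 1.81 in Tas (SE 0.31, adjusted p = 1.22e-05). The GTPases Rhov and Rac3 fell in MP8 by 1.46 (SE 0.34, edgeR adjusted p = 0.000419) and 1.18 (SE 0.12, adjusted p = 1.07e-09). Of 20 genes of fatty acid uptake and binding, 7 rose and 10 fell in MP8, 6 rose and 7 fell in Tas, and 5 rose and 2 fell in Pph, with medians of −0.16, 0.01 and 0.08. The lipid droplet coat protein Plin2 rose in Pph by 1.44 (SE 0.06, edgeR adjusted p = 5.07e-19), reaching 53.5 ± 0.341 CPM against 19.7 ± 1.14 CPM in WT. It fell in Tas by 0.39 (SE 0.07, edgeR adjusted p = 1.48e-05) and in MP8 by 0.18 (SE 0.07, adjusted p = 0.0188), a call in MP8 lost without MP8 replicate 1 or WT replicate 3. The fatty acid binding protein Fabp5 fell by 1.19 in MP8 (SE 0.09, edgeR adjusted p = 3.15e-12) and by 1.12 in Tas (SE 0.09, adjusted p = 1.35e-11), and Fabp7 rose in MP8 by 2.13 (SE 0.48, adjusted p = 0.000296) at 0.987 ± 0.192 CPM. Of 19 phospholipase C genes and PRIP partners, 5 rose and 8 fell in MP8, 5 rose and 6 fell in Tas, and 5 rose and 5 fell in Pph, with medians of −0.13, −0.01 and −0.02. The enzyme Plcd1 fell in each line, by 0.50 in MP8 (SE 0.08, edgeR adjusted p = 1.02e-06), 0.91 in Tas (SE 0.08, adjusted p = 3.09e-11) and 0.70 in Pph (SE 0.08, adjusted p = 4.96e-09), and Plcd3 rose in Tas by 1.19 (SE 0.07, adjusted p = 2.13e-15). Plcb2 rose in MP8 by 1.38 (SE 0.48, edgeR adjusted p = 0.0136) at 0.793 ± 0.174 CPM, a call lost without MP8 replicate 1 or WT replicate 3.

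**Figure D3:**
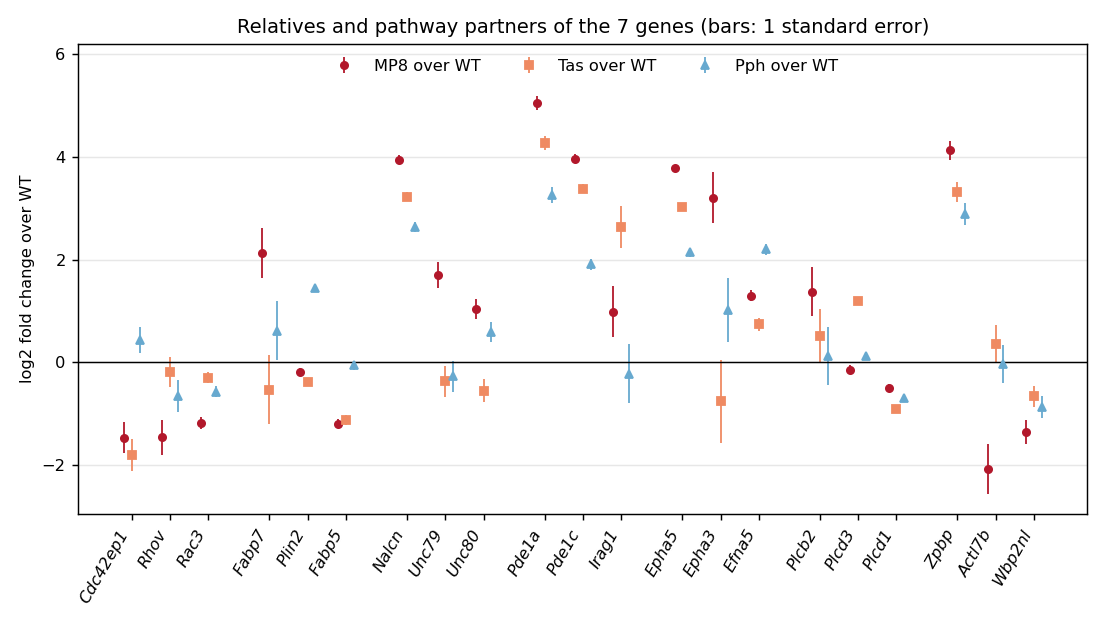
Log2 fold change over WT of relatives and pathway partners of the 7 genes, 3 genes for each of 7 lists; points are MP8, Tas and Pph, and bars are 1 standard error on either side. Nalcn, Pde1a, Pde1c, Epha5 and Zpbp lie at 1.91 or above in every null line in the order MP8, Tas, Pph, and most of the others lie between −2.08 and 1.44.

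The genes beside the 7 on their chromosomes were examined next. With the nearest tested gene taken on either side, there were 14 flanking genes. In MP8, 7 of them rose and 2 fell, in Tas 6 rose and 2 fell, and in Pph 5 rose and 1 fell, with medians of 0.18, 0.28 and 0.04. Of all tested genes, 30.0% rose in MP8, 26.2% in Tas and 30.6% in Pph. Small rises in MP8 of Asah2 (0.59, edgeR adjusted p = 0.0385) and Pou3f4 (0.74, adjusted p = 0.0301) were lost without WT replicate 1, without MP8 replicate 3, and, for Asah2 without MP8 replicate 2 and for Pou3f4 without MP8 replicate 1. The large rises were in 2 flanking genes. Kcnh5, a voltage-gated potassium channel gene beside Rhoj on the opposite strand, averaged 29.2 ± 3.72 CPM in MP8, 22.2 ± 2.95 in Tas and 9.95 ± 1.35 in Pph, against 2.17 ± 0.385 CPM in WT. Its log2 fold change was 3.75 (SE 0.15, edgeR adjusted p = 1.19e-13) in MP8, 3.35 (SE 0.16, adjusted p = 1.58e-12) in Tas and 2.19 (SE 0.18, adjusted p = 5.28e-09) in Pph. Sema3c, a secreted guidance cue encoded beside Cd36 on the opposite strand, averaged 105 ± 7.24 CPM in MP8, 66.2 ± 1.47 in Tas and 41.8 ± 1.39 in Pph, against 7.37 ± 0.878 CPM in WT. It rose by 3.83 in MP8 (SE 0.07, edgeR adjusted p = 2.43e-28), 3.17 in Tas (SE 0.07, adjusted p = 1.68e-25) and 2.51 in Pph (SE 0.07, adjusted p = 3.47e-22).

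The genes on the other side of Rhoj and Cd36 showed nothing of this size. Ppp2r5e, a phosphatase subunit gene, had −0.02, 0.04 and 0.05 in MP8, Tas and Pph, with edgeR adjusted p of 0.688, 0.508 and 0.371. Gnai1, encoding an inhibitory G protein subunit, had 0.19, 0.31 and 0.30, with adjusted p of 0.0156, 0.000205 and 0.000243, and the first of these was lost without MP8 replicate 2, WT replicate 1 or WT replicate 2. The 12 flanking genes other than Kcnh5 and Sema3c lay between −0.74 and 1.05 in MP8, −0.37 and 0.70 in Tas, and −0.17 and 1.53 in Pph. The lowest value was that of Gldc, the glycine decarboxylase gene beside Prkg1 (−0.74, SE 0.03, edgeR adjusted p = 1.02e-17 in MP8). The highest was that of Asah2, the neutral ceramidase gene on its other side (1.53, SE 0.23, adjusted p = 1.16e-06 in Pph). Boll, a germ cell RNA-binding protein gene beside Plcl1, rose in MP8 (1.05, SE 0.28, edgeR adjusted p = 0.00195) and in Pph (1.22, SE 0.28, adjusted p = 0.000418). For Epha6, Nalf1 and Cylc1, the flanking genes stayed between −0.37 and 0.74.

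**Figure D4:**
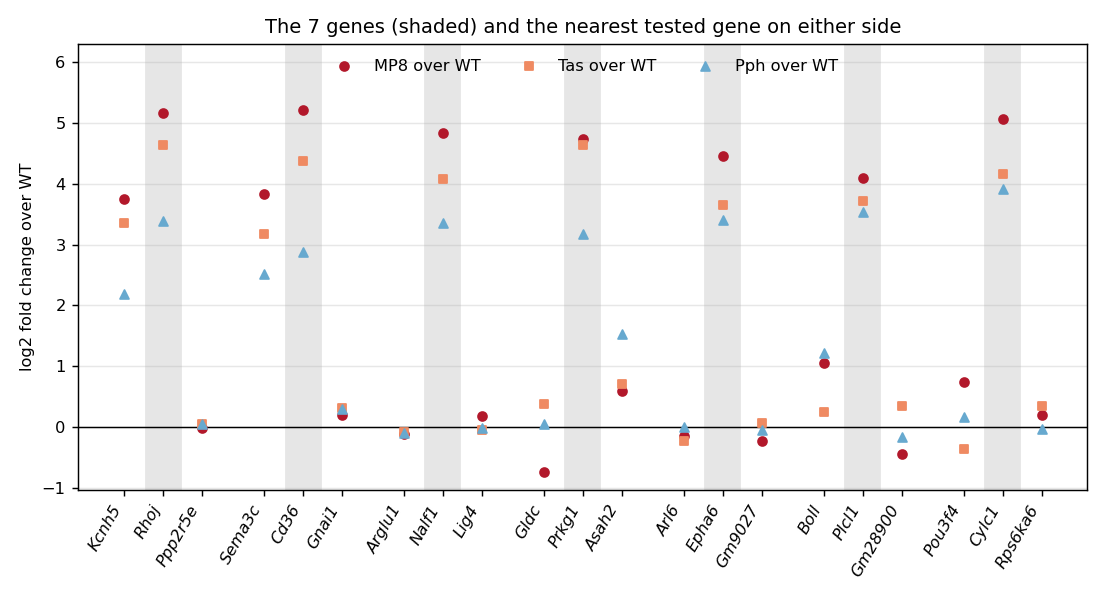
Log2 fold change over WT of the 7 genes, shaded, and of the nearest tested gene on either side of each; points are MP8, Tas and Pph. Kcnh5 and Sema3c, beside Rhoj and Cd36, lie between 2.19 and 3.83, and the other 12 flanking genes lie between −0.74 and 1.53.

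Other tested genes lay inside 2 of the 7. The predicted transcript 2900027M19Rik lies within Nalf1 on the same strand and rose by 1.14 in MP8 (SE 0.25, edgeR adjusted p = 0.000228), 1.23 in Tas (SE 0.25, adjusted p = 0.000112) and 0.73 in Pph (SE 0.26, adjusted p = 0.0186, lost without Pph replicate 2 or WT replicate 1). The intronless gene Cstf2t, encoding a testis form of a polyadenylation factor, lies within Prkg1 on the opposite strand. It had 0.07 in MP8, 0.45 in Tas and −0.12 in Pph, of which the value in Tas passed with an adjusted p of 6.17e-10; the one in Pph, at 0.0232, was lost without Pph replicate 2 or WT replicate 2. Whether reads were counted by strand is not given in the sources used here, so the sharing of reads between overlapping genes is uncertain.

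The 7 genes lie on 7 chromosomes, and most are long. In the GENCODE M21 annotation, Prkg1 spans 1201 kb, Epha6 952 kb, Nalf1 565 kb and Plcl1 348 kb. These 4 spans exceed those of 97.9% or more of the tested genes, whose median was 21 kb. Cd36 spans 107 kb and Rhoj 93.1 kb, and Cylc1, at 15.4 kb, was below the median. Long genes were called higher more often throughout the data. Of 453 tested genes of at least 300 kb, a bound set after the spans were seen, 57.4% rose in MP8, 47% in Tas and 54.3% in Pph, with medians of 0.61, 0.26 and 0.50. Of 16031 shorter genes, 29.1% rose in MP8, 25.5% in Tas and 30% in Pph, with medians of −0.03, −0.02 and 0.03. Falls made up 17% of the long class in MP8, 22.3% in Tas and 11.3% in Pph, against 33%, 26% and 26.4% of the shorter genes. No test was made of the difference between these classes.

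The chromosomes as a whole differed far less from WT than the 7 genes did. Over genes averaging 5 CPM or more, the median log2 fold change of chromosome 8, which carries Nalf1, was −0.09 in MP8, 0.34 in Tas and −0.05 in Pph. Chromosome 19, with Prkg1, had −0.10, 0.26 and −0.08, and chromosome 16, with Epha6, had 0.24, 0.10 and 0.20. The chromosomes of Cd36, Cylc1, Rhoj and Plcl1 stayed between −0.06 and 0.04. The part of these shifts in the values of Nalf1, Prkg1 and Epha6 was not tested.

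The summed levels of markers of the cell types in which these genes are best known are given next, and each sum is dominated by 1 or a few genes. The 14 endothelial markers, set beside Rhoj and Cd36, summed to 142 to 145 CPM in MP8, 133 to 139 in Tas, 129 to 133 in Pph and 129 to 131 in WT, with Tek the highest and Emcn at 3 counts or fewer in every library. Of the 9 that passed the filter, 4 rose and 3 fell in MP8, 3 rose and 3 fell in Tas, and 3 rose and 3 fell in Pph. Among them Esam, an endothelial adhesion molecule, had its means in the order of the 7 genes. Its level was 3.99 ± 0.759 CPM in MP8, 2.56 ± 0.483 in Tas, 2.14 ± 0.851 in Pph and 1.26 ± 0.292 in WT. Tas and Pph were not apart beyond their SDs. Vwf went the other way, with −1.38 in MP8 and −1.07 in Tas (edgeR adjusted p = 5.42e-06 and 0.000149). It had −0.29 in Pph, which did not pass. Kdr fell by 2.20 in Tas and by 1.17 in Pph (edgeR adjusted p = 1.19e-19 and 4.67e-14), and had −0.03 in MP8, which did not pass. The 9 adipocyte markers summed to 22.5 to 23.6 CPM in MP8, 28.6 to 29.3 in Tas, 30.2 to 34 in Pph and 31.8 to 32.8 in WT; Cfd was at 0, and Adipoq, Plin1, Fabp4 and Lep were at 3 counts or fewer. The 10 macrophage markers summed to 17.8 to 20.3 CPM in MP8, 13.7 to 14.5 in Tas, 22 to 23.5 in Pph and 15 to 16 in WT, with Cd68 making up most of it, Tyrobp at 0, and Adgre1, Lyz2, Aif1 and Fcer1g at 3 counts or fewer.

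The 10 smooth muscle markers, set beside Prkg1, summed to 114 to 119 CPM in MP8, 69.1 to 73.6 in Tas, 240 to 255 in Pph and 88.9 to 93.3 in WT. Smtn was the highest over all libraries, and in Pph Tagln stood at 116 ± 3.94 CPM. Of the 9 that were tested, 5 rose and 2 fell in MP8, 1 rose and 5 fell in Tas, and 8 rose and 0 fell in Pph. Neuron markers, 14 in all, summed to 526 to 545 CPM in MP8, 679 to 685 in Tas, 536 to 552 in Pph and 505 to 516 in WT, with Stmn2 the highest. Of the 13 tested, 5 rose and 5 fell in MP8, 5 rose and 4 fell in Tas, and 4 rose and 4 fell in Pph. Elavl4, a neuronal RNA-binding protein gene, followed the order of the 7 genes, at 53.1 CPM in MP8, 40.7 in Tas, 20 in Pph and 6.26 in WT. It rose by 3.08 in MP8 (SE 0.08, edgeR adjusted p = 2.68e-23), 2.70 in Tas (SE 0.09, adjusted p = 2.22e-21) and 1.67 in Pph (SE 0.10, adjusted p = 3.6e-15). The neurofilament gene Nefl also rose in each line, by 0.93, 0.61 and 0.63, with edgeR adjusted p of 1.78e-19, 1.14e-14 and 5.48e-15. Rbfox3 went the other way, with −1.59 in MP8, −1.08 in Tas and −0.66 in Pph (edgeR adjusted p = 2.62e-05, 0.00146 and 0.0327). Elavl4, Nefl, Esam, Vwf, Kdr, Tagln and Rbfox3 are named after their values were seen. The 14 spermatid markers, set beside Cylc1, summed to 255 to 265 CPM in MP8, 281 to 294 in Tas, 258 to 266 in Pph and 282 to 291 in WT, nearly all from Odf2. Tnp1, Akap4, Spaca7 and Smcp were at 0 in all 12 libraries, and Prm1, Prm2, Gapdhs and Acr were at 3 counts or fewer. Feeder fibroblast markers, 12 in all, summed to 29.3 to 31.5 CPM in MP8, 14.9 to 16.8 in Tas, 54.7 to 56.9 in Pph and 20.5 to 21 in WT, with Postn, Lum and Fap at 3 counts or fewer. The part of the endothelial, smooth muscle and neuron markers in the values of Rhoj, Prkg1, Nalf1 and Epha6 was not tested.

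The genes most like each of the 7 across libraries were found by the root mean square difference of log2 CPM, centred on the gene's mean, over the 12 libraries and 13353 genes. Nalf1 and Cd36 had the same nearest gene, Pde1a, at 0.20 and 0.27. Rhoj and Prkg1 were near to each other, at 0.23. Rhoj was as near to Wdr49, also at 0.23, and Prkg1 was followed by Galntl6 at 0.24. The second nearest gene was Kcnc2 for Nalf1, at 0.24, and Cox7b2 for Cd36, at 0.33. Kcnc2 was also the nearest to Cylc1, at 0.35, before Dnm3 at 0.39. Plcl1 was nearest to Tmem132d at 0.33 and Meikin at 0.36, and Epha6 to Cntnap5a at 0.50 and Vmn1r48 at 0.53. The larger distances belong to the low transcripts, whose libraries spread more. As an example of the likeness, Galntl6 averaged 105 ± 5.23 CPM in MP8, 85.2 ± 3.41 in Tas and 36.6 ± 3.43 in Pph, against 5.15 ± 0.0953 CPM in WT.

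The authors' deposited table gave log2 fold changes between 2.83 and 5.22 for the 21 pairs of a gene and a null line, and the largest difference from the values above was 0.08.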

How the data were processed

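Total RNA of 12 libraries was sequenced on an Illumina NovaSeq after TruSeq preparation, per the labels. FastQC, HISAT2 2.1.0, RSEM, build GRCm39 and DESeq 1.26.0 are named in the submitters' processing notes, with no role or order. Per the file headers, the deposited tables hold 1 expected count per gene and library, an estimate of reads that the authors did not normalize. Per the file headers, they also hold TPM, scaled by the authors for transcript length and to a common total. The authors' comparison of each null line with WT is deposited as a ratio (fold change), a log2 fold change and a p-value. Of the deposited counts above 0, 32.5% were not whole (tolerance 1e-09). WT values in the 3 tables differed by 0, so WT entered once, and 0 columns were left without a library.

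The 7 genes and all gene lists were chosen with earlier results of these data known. Rounded counts entered edgeR 4.0.16 (R 4.3.3) after filterByExpr on the groups and TMM scaling. A single robust quasi-likelihood model with a mean for each of the 4 groups had 8 residual degrees of freedom. The Benjamini-Hochberg adjustment ran over 16840 genes in each comparison, and 0.05 was the threshold. CPM use the TMM-scaled totals, and SE and 95% intervals (1.96 SE) come from the fit. The reads carry no molecular identifiers, so a limit of 3 counts for a count of 0 covers counting error only.

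Named besides the 7 were the targeted genes, up to 3 called genes per list with the largest change, the nearest tested gene on either side, the 2 most alike genes with a name, and markers at 0 or with the highest level. Genes beside a member in rank, Pde1b, Pde10a and some marker genes were added after their values were seen. GENCODE M21, matched by identifier for 97.9% of tested genes, gave spans, strands, chromosomes and neighbours. It is on another build (GRCm38) than the files, so these follow its coordinates, of which none are printed. Promoter windows are RefSeq's on GRCm38.p6. Alternatives were DESeq2 size factors, upper quartile scaling, other filters, the DESeq2 1.42.0 Wald test, fits of only the groups compared, a replicate block and leaving out each library. The scripts were tested on simulated data.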

Additional observations from a re-analysis of the deposited data

How the results depend on the processing

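Under the alternatives, the number of genes called stayed within 1.5 times of the reported one in all 6 comparisons, at 9526 to 10687 in MP8 over WT, 7705 to 9062 in Tas over WT and 8552 to 9590 in Pph over WT. Of the 7 genes, 4 to 7 were called in MP8 over Tas, 6 or 7 in MP8 over Pph and 4 in Tas over Pph, and leaving out a library gave 4 to 6, 6 to 7 and 4. Over WT, all 7 kept a positive fold change in each null line under each alternative. Nothing is read from this, since the genes were chosen for large rises over WT in the same libraries. The uncalled difference of Epha6 in Tas over Pph turned to −0.05 without Tas replicate 3 (edgeR adjusted p = 0.92), with up to 0.53 in the other fits that left out a library. That of Cylc1 turned to −0.02 without Pph replicate 2 (edgeR adjusted p = 0.954), with up to 0.46 in the others. Some calls of other genes, said above to be lost without a library, were also lost under other alternatives. The DESeq2 Wald test lost those of Unc80 in Tas and Pph, of Asah2, Pou3f4 and Plin2 in MP8, and of 2900027M19Rik in Pph. Upper quartile scaling lost those of Asah2 and Gnai1 in MP8. Fits of only the groups compared lost those of Asah2 and Plin2 in MP8 and of Unc80 in Tas. The cause of the calls gained or lost was not tested. The titles number the libraries 1 to 3, but libraries of the same number did not deviate together (correlations of −0.23 to 0.09 over 18 pairs). No pairing by number was seen, though a weak one could go unseen with 3 libraries per group. With the number as a replicate block, 10303 genes were called in MP8 over WT, 8533 in Tas over WT, 9327 in Pph over WT, 9262 in MP8 over Tas, 9723 in MP8 over Pph and 9582 in Tas over Pph, with 5, 7 and 4 of the 7 genes in MP8 over Tas, MP8 over Pph and Tas over Pph. Depth limits Epha6, Plcl1 and Cylc1 most, with 17, 19 and 8 counts in all in the 3 WT libraries.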
